A study of Mus musculus with 2 samples.

Results

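Arg1 hypoxic myeloid cells are tumour myeloid cells that carry RNA of Arg1 together with genes linked to low oxygen. They were picked out one cell at a time in 2 single-cell RNA-seq libraries of small subcutaneous B16F10 tumours. B16F10 is a mouse melanoma line. The hosts were either Atf4 WT/WT (called WT) or Atf4 Δ/Δ (called KO), with 1 library each. Each library pooled 2 tumours from hosts aged 11 weeks, and the labels give both as mixed in sex. Per the study's methods, hosts of both genotypes carried Rosa26::CreERT2, a tamoxifen-activated Cre expressed throughout the body, and both received tamoxifen, so the deletion was not limited to myeloid cells. The injected melanoma cells kept their own Atf4 in both libraries.

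The members were chosen by measured UMIs, so the values of the genes in the gate are no finding. A cell was a member when it had 200 to 5000 detected genes, at most 7.5% mitochondrial UMIs (unique molecular identifiers, each counting 1 captured RNA molecule) and less than 0.5% of its UMIs in the melanoma genes Pmel, Dct, Mlana and Tyrp1. It also needed a UMI of Tyrobp or Fcer1g, the signalling adaptors of myeloid receptors, a UMI of Arg1, and a UMI of at least 1 of the 5 companion genes Inhba, Hilpda, Egln3, Slpi and Thbs1. This gave 308 members of 11778 barcodes, 129 of 6304 in WT and 179 of 5474 in KO. They were compared with the 1489 WT and 944 KO myeloid cells without an Arg1 UMI. A further 26 WT and 38 KO myeloid cells had an Arg1 UMI and no companion gene.

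Arginase 1, the product of Arg1, splits arginine into ornithine and urea, and macrophages that express it deplete arginine and feed polyamine and proline synthesis. When oxygen is low, prolyl hydroxylases no longer mark the HIF-alpha subunits for destruction, and HIF then binds a short DNA motif near genes of glucose uptake, glycolysis, mitophagy and vessel growth. Macrophages in poorly perfused tumour regions are known for this programme. ATF4 is the transcription factor of the integrated stress response, which raises amino acid synthesis and transport.

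The genes that define the gate lie on 5 chromosomes of the GRCm38 genome, and all are protein coding in the annotation. Arg1 (ENSMUSG00000019987) is on chromosome 10, 24915221 to 24927484. Hilpda (ENSMUSG00000043421), whose protein sits on lipid droplets and restrains lipolysis, is on chromosome 6, 29272488 to 29275446. Egln3 (ENSMUSG00000035105), one of the HIF prolyl hydroxylases and itself induced by HIF, is on chromosome 12, 54178981 to 54203860. Inhba (ENSMUSG00000041324), the subunit of activin A, is on chromosome 13, 16011851 to 16031621. Thbs1 (ENSMUSG00000040152), the matrix protein thrombospondin 1, and Slpi (ENSMUSG00000017002), a secreted inhibitor of leukocyte proteases, are both on chromosome 2, at 118111876 to 118127133 and 164354070 to 164389095.

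The core of the HIF motif was searched, as ACGTG or GCGTG on either strand, in the 250 bases before each gene start in RefSeq (GRCm38.p6). Matches are shown for 3 of the genes highest in the members and for the companion gene Egln3, because these genes appear together in the comparisons that follow. Each stretch is 29 bases around the match nearest the start, 5′ to 3′ on the strand of the gene, with matched letters in capitals.
Slc2a1, chr4:119108697-119108725, plus strand: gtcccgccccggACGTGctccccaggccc
Bnip3, chr7:138909525-138909553, minus strand: ggctccgccgccGCGTGcgtcccgccccg
Ankrd37, chr8:45999986-46000014, minus strand: ttcactgcgCACGCGTGctgcggccgcct
Egln3, chr12:54204087-54204115, minus strand: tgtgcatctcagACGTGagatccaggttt
The window of Bnip3 held 5 matches, that of Ankrd37 held 4, that of Slc2a1 held 2 and that of Egln3 held 1. A match in at least 1 window was found for 8 of the 10 genes with a window among the 12 highest in the members, for 7 of the 9 with a window among the 12 lowest, and for 41.5% of 27025 genes. All 4 gate genes with a window had one, and Arg1 and Thbs1 had no window in the table. The highest and the lowest genes thus held the motif at a like share.

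The members summed to 290895 UMIs in WT and 362464 in KO. Their median depth was 1970 UMIs per cell for WT, with 996 genes detected, and 1548 UMIs for KO, with 772 genes, against 1683 and 1756 UMIs in Arg1-negative cells. A doublet caller marked 0 members in WT and 1 in KO, and 10 barcodes occurred in both libraries, 1 of them a member in each. The WT library went against its label in 1 respect, since none of its 3861 kept cells had a Y-linked UMI, while 239 of 3557 did in KO. Among the members, 83 of 129 in WT had an Xist UMI and none a Y-linked one, whereas in KO 28 had a Y-linked UMI, 11 had Xist without one and 140 had neither. Sex and host genotype could therefore be told apart only in part. With 1 library per genotype there was no replicate check and no test was possible. Intervals given here are 95% intervals that cover counting error only.

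The members carried the general markers of myeloid cells. Over the 17 genes of the myeloid list, the median log2 ratio of members over Arg1-negative cells was -0.01 in WT and 0.03 in KO. Lyz2, the lysozyme of monocytes and macrophages, was at 6504 CPM (a gene's UMIs scaled to the total UMIs of the cell class) in WT members and 6238 CPM in KO members. The scavenger receptor gene Cd68 was at 990 and 1106 CPM. Markers of lymphocytes and mast cells were nearly missing. T and NK cell genes summed to 0 CPM in the WT members and 2.76 CPM in those of KO, with Cd3e at 0 UMIs in both, and the mast cell marker Cpa3 was at 0 UMIs in both. Neutrophil genes summed to 626 and 635 CPM in members, against 443 and 907 CPM in Arg1-negative cells, and dendritic cell genes to 505 and 403 CPM, against 709 and 459 CPM. Melanoma genes outside the gate summed to 323 and 290 CPM in members. Fibroblast genes stood at 1337 and 212 CPM in members and red cell genes at 1248 and 0 CPM. Much of this WT RNA sat in few cells. Of the 389 fibroblast UMIs of the WT members, 356 were in the 10 members with an Inhba UMI. For the red cell gene Hbb-bs, 1 WT cell held 121 of the 246 UMIs. The label of a hypoxic cell comes from the gate. Hypoxia genes outside the gate are described in the Arg1 comparison. They give the label no separate support, because the gate itself picked cells by Hilpda and Egln3.

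The gate genes are described here without a test, since their values chose the cells. Arg1 stood at 2107 CPM in WT members (1944 to 2281, 613 UMIs) and 2679 CPM in KO members (2513 to 2853, 971 UMIs). The median member held 3 Arg1 UMIs in both libraries, and the highest held 23 in WT and 37 in KO. At 2000 UMIs per cell, the share of all myeloid cells with an Arg1 UMI was 10.0% in WT (7.88 to 12.6) and 15.3% in KO (12.2 to 18.7). It was 0.237% and 0.283% in melanoma-marker cells thinned to the same depth, and 0.969% and 1.55% in those cells without thinning. Both are only a guide to free RNA, since thinning removes free RNA too. Thus Arg1 UMIs were far more frequent in myeloid cells than in melanoma-marker cells, thinned or not, in both libraries. Melanoma-marker cells had median depths of 11682 UMIs in WT and 10535 UMIs in KO before thinning.

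Hilpda and Thbs1 let most of the cells into the gate. Hilpda had a UMI in 72.1% of WT and 80.4% of KO members, at 832 CPM (730 to 944) and 968 CPM (870 to 1075). Arg1-negative cells held it at 199 and 265 CPM. Thbs1 had a UMI in 75.2% and 68.7% of members, at 1131 CPM (1012 to 1260) and 1327 CPM (1211 to 1451), against 359 and 488 CPM in Arg1-negative cells. Both genes were seen together in 48.8% of WT and 52.0% of KO members. The other 3 companion genes were rarer and were higher in KO members. Inhba stood at 79.1 CPM (WT) against 190 CPM (KO), a log2 KO/WT ratio of 1.27 (0.57 to 2.02). Slpi was at 55.0 and 130 CPM, a ratio of 1.24 (0.39 to 2.16), and Egln3 at 61.9 and 124 CPM, a ratio of 1.0 (0.19 to 1.88). In Arg1-negative cells the ratios were also above 0, at 0.59 for Inhba, 1.13 for Slpi and 1.15 for Egln3. Slpi was at 6.19 and 17.2 CPM in melanoma-marker cells. In members thinned to 2000 UMIs, Inhba was seen in 6.25% of WT and 1.69% of KO cells, Slpi in 1.56% and 3.39%, and Egln3 in 4.69% and 18.6%. Exactly 1 companion gene was detected in 61 WT and 58 KO members, and 2 or more in 68 and 121.

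At the edge of the gate, 21 WT and 16 KO members had a single Arg1 UMI and a single companion gene. These cells summed to 6147 CPM (WT) and 6296 CPM (KO) over the 33 genes of the hypoxia list, which leaves out Hilpda and Egln3. All members summed to 7463 and 7689 CPM. Myeloid cells with Arg1 and no companion gene were at 4542 and 4816 CPM, cells with a companion gene and no Arg1 at 3489 and 5367 CPM, and cells with neither at 2444 and 3028 CPM. The level thus stepped up with each part of the gate in WT, while in KO the cells with a companion gene and no Arg1 were above those with Arg1 alone. Members let in by Inhba, Slpi or Thbs1 without Hilpda or Egln3 were still at 6046 CPM (34 cells) and 5633 CPM (26 cells).

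**Figure D1:**
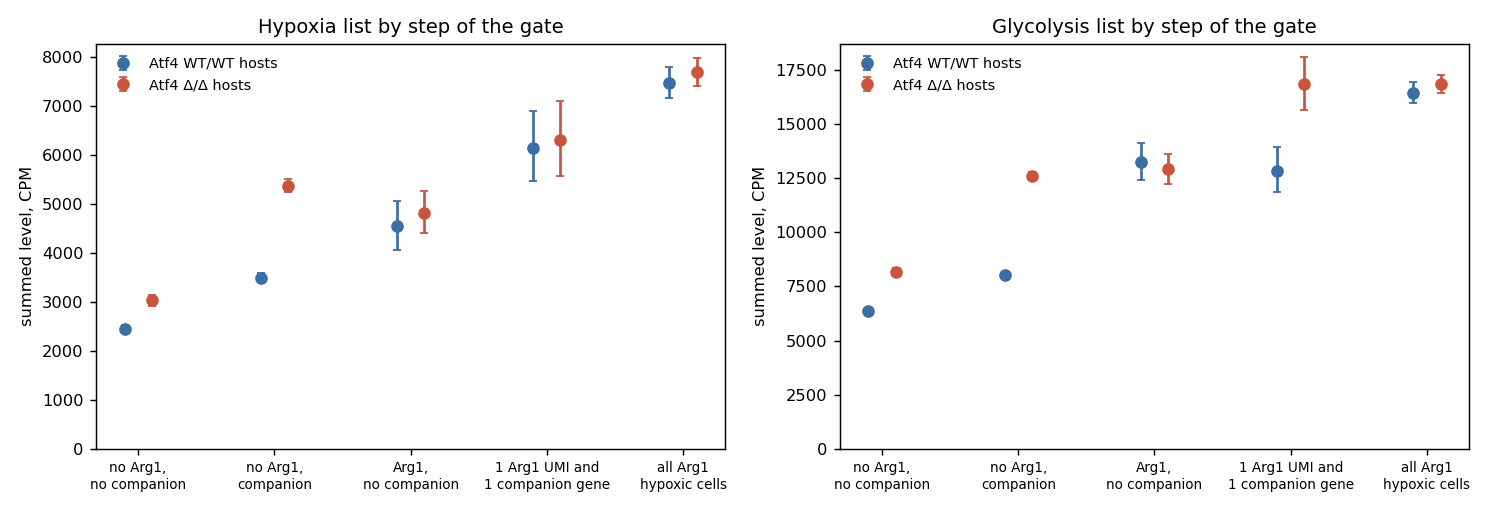
Summed level (CPM, y axis) of the hypoxia list (left) and the glycolysis list (right) in myeloid cells at 5 steps of the gate, for Atf4 WT/WT and Atf4 Δ/Δ hosts, with 95% counting intervals as bars. The members of both libraries sit together at 7463 and 7689 CPM for hypoxia, and the cells without Arg1 are higher in Atf4 Δ/Δ hosts.

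The first comparison set the members against Arg1-negative myeloid cells within each library. The members were richer in genes of the hypoxia and glycolysis lists and poorer in genes of the proliferation list. Of 3431 genes with at least 100 UMIs over the 2 classes in each library, 29 (0.845%) were at least 2-fold higher in the members of both libraries and 50 (1.46%) at least 2-fold lower, gate genes left out. The contrast is the one that chose the cells, so these are descriptions and no test was made.

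Among the highest genes outside the gate was Slc2a1, which encodes the glucose transporter GLUT1. It was at 358 CPM in WT members against 63.6 CPM in Arg1-negative cells (log2 2.49, 2.14 to 2.84), and at 287 against 95.6 CPM in KO (1.58, 1.23 to 1.93). The gap was thus larger in WT, where the Arg1-negative cells had less of it. The mitophagy receptor gene Bnip3 was at 347 against 69.5 CPM in WT (2.32, 1.97 to 2.67) and 425 against 165 CPM in KO (1.37, 1.08 to 1.64). Vegfa, the main vessel growth factor, had ratios of 2.02 (1.54 to 2.48) and 1.47 (0.98 to 1.95). Ankrd37, a target of HIF, reached 2.13 and 1.57, Ndrg1, a stress gene induced in hypoxia, 1.93 and 1.52, and the MYC antagonist Mxi1 1.89 and 1.36. Each of these was higher in the members of both libraries. Vegfa was the only one of 3 angiogenic factors with enough UMIs that was past 2-fold in both, and over the 11 measured genes of that list the medians were 0.29 and -0.18, with 3 above 0 and 3 below in both libraries.

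Mmp12, the macrophage elastase, had the largest ratio of the named genes, at 846 against 90.1 CPM in WT (3.23, 2.98 to 3.48) and 447 against 91.6 CPM in KO (2.29, 1.98 to 2.59). It was seen in 45 of 129 WT and 32 of 179 KO members, so it marked a minority of them. Il7r, the interleukin-7 receptor, had ratios of 2.10 and 1.87. Srgn, the proteoglycan serglycin of secretory granules, was at 2204 CPM in the WT members and 2825 CPM in those of KO, with ratios of 1.47 (1.34 to 1.59) and 1.74 (1.63 to 1.85). The chemokine Ccl24 (1.86 and 1.54), the membrane glycoprotein gene Pdpn (2.09 and 1.36) and AA467197 (1.80 and 1.38) complete the 12 highest.

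Among the 12 lowest genes was Stmn1, a tubulin-binding protein of dividing cells, at 75.6 CPM in WT members against 272 CPM (-1.85, -2.53 to -1.24) and at 63.5 against 207 CPM in KO (-1.71, -2.38 to -1.11). Cenpf, a kinetochore gene (-1.47 and -1.68, on 5 and 6 UMIs in members), was lower too. So was Dctpp1, which clears modified nucleotides (-1.65 and -1.52, on 6 and 8 UMIs). Ly6c2, a marker of classical monocytes, had 7 UMIs in WT and 4 in KO members, with ratios of -2.78 (-4.10 to -1.72) and -2.78 (-4.68 to -1.40). When each cell was thinned to 2000 UMIs, which leaves 54 WT and 46 KO members, its mean ratio turned to 1.26. With so few Ly6c2 UMIs in the members, that ratio depends on the floor of 3 UMIs. It is not read as a change in level, and the cause was not tested. The monocyte list as a whole had medians of -0.24 and -0.15, with 3 of 12 measured genes above 0 and 7 below in both libraries. The chemokine Ccl5 had ratios of -2.62 and -2.54, and the stress cytokine Gdf15 of -1.78 and -1.57.

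The other 6 included the basement membrane collagen genes Col4a1 (-3.31 and -3.45, on 4 and 2 UMIs in members) and Col4a2 (0 and 1 UMIs). Mgp also had 0 and 1 UMIs. The rest were Igfbp7 (-2.60 and -2.64, on 6 and 5 UMIs), Bgn (-1.88 and -3.69, on 8 and 3) and Ctla2a (-2.20 and -2.09, on 4 and 8). The ratios of all 6 thus rest on few member UMIs, near the floor of 3. The 8 fibroblast genes summed to 1575 CPM (WT) and 1796 CPM (KO) in Arg1-negative cells, and the 6 endothelial genes to 159 and 50.1 CPM, so that class held some stromal RNA. In the members the fibroblast genes summed to 1337 CPM in WT and 212 CPM in KO, and the endothelial genes to 24.1 and 27.6 CPM. The fibroblast sum was thus close to that of the Arg1-negative cells in WT and lower in KO. However, the WT sum came mostly from few members. The highest WT cell held 101 of the 105 Col1a2, 89 of the 99 Col3a1 and 83 of the 100 Sparc UMIs. With at least 5 UMIs of Tyrobp and Fcer1g required, 28 of 2665 genes were at least 2-fold lower in both libraries and the mean ratio of Ctla2a turned to 0.076. The part of stromal RNA in the other low genes was not tested.

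**Figure D2:**
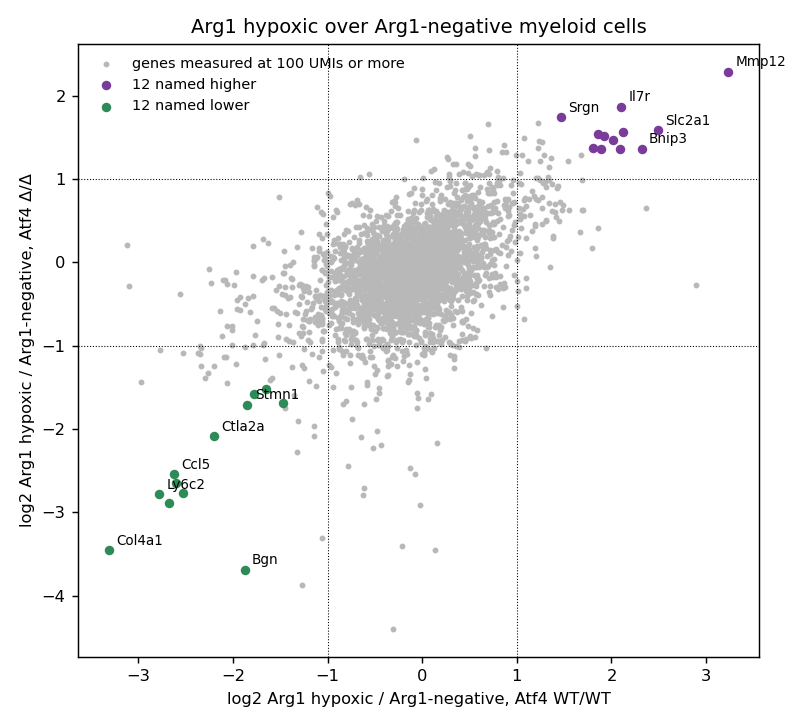
Log2 ratio of Arg1 hypoxic over Arg1-negative myeloid cells in Atf4 WT/WT (x axis) and Atf4 Δ/Δ hosts (y axis) for 3431 genes, with the 12 named genes on each side coloured and the 2-fold limits dotted. Mmp12 lies farthest to the upper right, at 3.23 and 2.29.

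The gene lists described the same contrast more broadly. Of the 8154 genes measured, 1875 were above 0 in both libraries and 3103 below, with medians of -0.07 in WT and -0.14 in KO. Of the hypoxia list, 28 of 32 measured genes were above 0 in both libraries, and 7 of the 17 with enough UMIs were at least 2-fold higher in both. The median ratio was 1.31 in WT and 0.65 in KO. The cytokine Mif, the most abundant of the list, was at 1929 CPM in WT members (1.45) and 1951 CPM in KO members (0.73). Plin2, the coat protein of lipid droplets, had ratios of 0.70 and 0.96. Hif1a itself differed little, at 0.21 and 0.24. Of the glycolysis list, 13 of 15 measured genes were above 0 in both libraries, with medians of 1.26 and 0.64. Gapdh (1.04 and 0.58), Ldha (1.22 and 0.74) and Pgk1 (1.40 and 0.61) showed the same order, and Gpi1, which isomerises glucose 6-phosphate, was the only one of the list at least 2-fold higher in both, at 1.54 and 1.21.

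The wound repair list had 18 of 27 measured genes above 0 in both libraries, with medians of 0.54 and 0.46. Fn1, which encodes fibronectin, was at 1193 CPM (WT) and 1214 CPM (KO) in members (1.24 and 1.45), and Spp1, which encodes osteopontin, at 4266 and 2155 CPM (1.24 and 0.99). F10, the coagulation factor X gene, was among those at least 2-fold higher, at 1.36 and 1.26. Of the cytokine list, 17 of 27 genes were above 0 in both, with medians of 0.19 and 0.42. Ptgs2, the inducible cyclooxygenase, was at 1.05 and 1.29, and Ccl9 at 1.02 and 0.95. Ctsl was the only one of 20 lysosome genes past 2-fold in both, at 1.29 and 1.28, while that list's medians were 0.17 and 0.18.

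All 12 proliferation genes were below 0 in both libraries, with medians of -1.71 and -1.19, and 7 of the 9 with enough UMIs were at least 2-fold lower in both. Mki67, a marker of cycling cells, had 5 UMIs in WT members and 14 in KO members, with ratios of -2.53 and -1.08. Complement and tissue macrophage genes had medians of -0.60 and -0.27, with 14 of 19 below 0 in both libraries. Pf4, the platelet factor 4 chemokine, differed from that list, at 0.51 and 1.51. MHC class II genes had a median of -0.55 in WT and 0.13 in KO. Among genes of arginine use other than Arg1, the 13 measured had medians of -0.15 and 0.03. Odc1, the first enzyme of polyamine synthesis, was at 0.17 and 0.12. Arg2, the mitochondrial arginase, was at 2.15 in WT on 21 UMIs and 0.39 in KO on 7.

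The second comparison asked how the members differed with host genotype. Atf4 (ENSMUSG00000042406, chromosome 15, 80255184 to 80257541, protein coding) was checked first. It was at 230 CPM in WT members (178 to 293, 67 UMIs) and 63.5 CPM in KO members (40.2 to 95.2, 23 UMIs). The KO/WT ratio was thus -1.86 on the log2 scale (-2.61 to -1.16). In Arg1-negative cells the ratio was -1.15 (-1.40 to -0.92), and in melanoma-marker cells it was -0.34 (-0.43 to -0.25). Atf4 was thus lower in the KO members as labelled. Some Atf4 UMIs were left. The paper places the loxP sites around exons 2 and 3. Counts per gene do not show which part of Atf4 a UMI came from, or whether its transcript was intact. With free RNA subtracted, the ratio in members was -2.19. The source of the UMIs that were left was not tested.

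Members made up 7.85% of WT myeloid cells (6.59 to 9.25, 129 of 1644) and 15.4% of KO myeloid cells (13.4 to 17.6, 179 of 1161), a log2 ratio of 0.97 (0.64 to 1.31). Of all kept cells the shares were 3.34% and 5.03%. The size of this difference moved with depth. When each cell was thinned to 2000 UMIs before the gate, the shares were 8.27% (54 of 653) and 9.77% (46 of 471), a ratio of 0.24 (-0.36 to 0.83). That step left out 967 WT and 663 KO myeloid cells under 2000 UMIs. At 1000 UMIs they were 5.18% (69 of 1331) and 12.8% (114 of 894), a ratio of 1.30 (0.85 to 1.75).

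Without thinning, the shares in cells of 1000 to 1500 UMIs were 6.24% (4.15 to 8.94) in WT and 22.5% (17.7 to 27.9) in KO. In cells of 2000 to 3000 UMIs they were 11.8% (8.61 to 15.7) and 11.97% (8.10 to 16.8). They were 11.2% and 20.3% in cells of 1500 to 2000 UMIs, a ratio of 0.86 (0.14 to 1.58), and 6.97% and 11.7% in cells over 3000 UMIs, a ratio of 0.75 (-0.07 to 1.60). The intervals of the libraries stood apart in both bins under 1500 UMIs and overlapped in the 3 bins above. The difference was also read in cells split by Xist and Y-linked UMIs. This split stands for sex only in part, because deeper cells show these UMIs more often. Among myeloid cells that had Xist but lacked Y-linked UMIs the shares were 7.95% (83 of 1044) and 9.57% (11 of 115), a ratio of 0.27 (-0.79 to 1.18). That interval rests on 11 KO members and includes the 0.97 of all myeloid cells. In cells with neither they were 7.67% and 15.8%, a ratio of 1.04 (0.55 to 1.55). Depth and sex could not be told apart by this split, and the part of each in the difference was not tested.

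**Figure D3:**
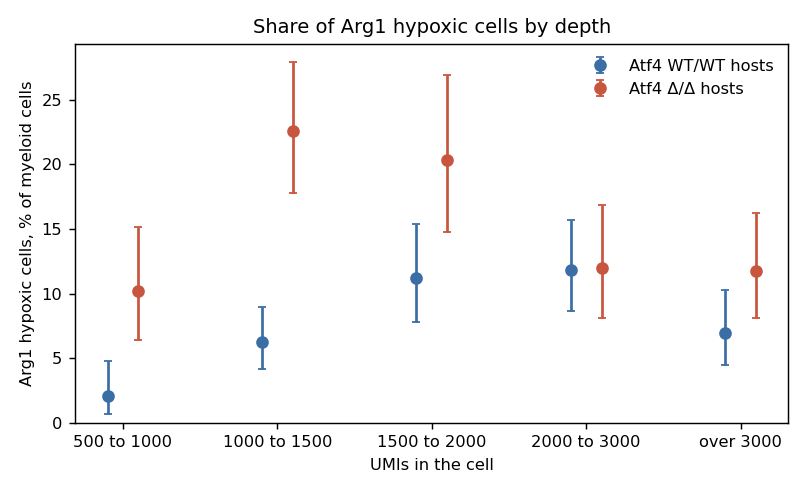
Arg1 hypoxic cells as a percentage of myeloid cells (y axis) in 5 bins of UMIs per cell (x axis), for Atf4 WT/WT and Atf4 Δ/Δ hosts, with Clopper-Pearson 95% intervals as bars. The libraries stand apart at 1000 to 1500 UMIs, at 6.24% and 22.5%, lie together at 2000 to 3000 UMIs, at 11.8% and 11.97%, and are at 6.97% and 11.7% over 3000 UMIs.

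The hypoxia and glycolysis genes of the members lay at like levels in both genotypes. All members had passed the same gate, which holds Hilpda and Egln3. The part of that choice in the likeness was not tested. The median log2 KO/WT ratio was -0.04 over 22 hypoxia genes, 10 above 0 and 12 below, and -0.05 over 14 glycolysis genes. In Arg1-negative cells the medians were 0.63 and 0.52. Over all measured genes they were 0.02 in members and 0.04 in Arg1-negative cells. Of the 3997 genes measured in members, 2050 were above 0 and 1947 below. Mif was at 0.02 (-0.15 to 0.18) in members and 0.74 in Arg1-negative cells, and Pgk1 at 0.02 (-0.16 to 0.20) and 0.82. Bnip3 was at 0.29 (-0.08 to 0.67) and 1.25. Hence the smaller ratios of members over Arg1-negative cells in KO went with higher levels in the KO Arg1-negative cells. Pfkp, a phosphofructokinase, was the single glycolysis gene at least 2-fold apart in members, at -1.08 (-1.68 to -0.50).

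The 23 measured ATF4 target genes had a median of -0.19 in members and 0.53 in Arg1-negative cells, with 9 above 0 and 14 below in members. None of the 5 with enough UMIs was 2-fold apart. Cebpb, a partner of ATF4, was at -0.38 (-0.60 to -0.17), Slc3a2, a chain of amino acid exchangers, at -0.20 (-0.57 to 0.16), and Eif4ebp1, a repressor of translation, at 0.52 (0.15 to 0.89). With 2 or more companion genes required the median was 0.12, and with Inhba, Slpi and Thbs1 as the only companions it was 0.17, so its sign depended on the gate.

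Of 916 genes with at least 100 UMIs in the members, 14 (1.53%) were at least 2-fold higher in KO and 15 (1.64%) at least 2-fold lower. With members holding a UMI of Hbb-bs, Col1a1, Col1a2 or Col3a1 left out, a step chosen after seeing the data, 10 of 718 were higher and 8 lower, and in members with Xist but no Y-linked UMI 8 of 344 were higher and 20 lower. Among the highest were genes of the perivascular resident macrophage list. Lyve1, a hyaluronan receptor of such macrophages, had 9 UMIs in 4 WT members and 231 UMIs in 31 KO members, or 30.9 and 637 CPM, a log2 ratio of 4.36 (3.41 to 5.51). The lectin gene Fcna, with 5 and 104 UMIs, was at 4.06 (2.79 to 5.71), and Cbr2, a carbonyl reductase of the same macrophages, with 27 and 165 UMIs, at 2.29 (1.70 to 2.94). The chemokines Ccl8 and Ccl12 were at 2.14 (1.87 to 2.43) and 1.67 (1.30 to 2.06), while the cytokine and chemokine list, which holds Ccl12, had a median of 0.05, with 12 genes above 0 and 11 below. F13a1, a transglutaminase of clotting, was at 516 and 1573 CPM (1.61, 1.35 to 1.88), and Selenop, a selenium carrier, at 553 and 1374 CPM (1.31, 1.05 to 1.58). Saa3, an acute-phase gene, was at 2.04 (1.59 to 2.52).

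All 8 ratios were also above 0 in Arg1-negative cells of the same libraries. They were 2.06 for Lyve1, 2.21 for Fcna, 0.93 for Cbr2, 1.11 for Ccl8, 1.52 for Ccl12, 1.06 for F13a1 and 0.89 for Selenop. Saa3 was further apart there, at 5.20. KO cells with Arg1 and no companion gene held Lyve1 at 1347 CPM, Fcna at 542 CPM and Ccl8 at 6201 CPM. The KO members were lower, at 637, 287 and 1945 CPM. In WT cells with Arg1 and no companion gene the values were 41.7, 27.8 and 1764 CPM. Ccl8 was also higher in KO Arg1-negative cells, at 3170 CPM, so high levels of these 3 genes were not particular to the members. Of the perivascular resident list, 4 of 7 genes with enough UMIs were at least 2-fold higher in KO members and 1, Retnla, at least 2-fold lower. Its median was 1.17 in members and 0.73 in Arg1-negative cells. Interferon genes had a median of 0.61 in members and -0.06 in Arg1-negative cells. In members 9 of 12 were above 0, beside 2050 of all 3997 measured genes. Rsad2, an antiviral enzyme, was at 1.29 (0.78 to 1.83) and Ifi27l2a at 0.93 (0.78 to 1.08).

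The lowest genes in KO fell into separate groups. Hbb-bs, a globin of red cells, had 246 UMIs in WT members and 0 in KO members, and the 5 red cell genes summed to 1831 CPM and 0.894 CPM in the Arg1-negative cells. With the KO count set to the floor of 3, Hbb-bs was at least 102-fold higher in WT members, a log2 KO/WT ratio of -6.67 (-8.96 to -5.11). However, 1 WT cell held 121 of the UMIs, and without it the ratio at the same floor was -5.70. The globins differed between the libraries in both classes. Col1a2, Col3a1 and Sparc, fibroblast genes, had log2 ratios of -3.57, -2.78 and -1.64, but 1 WT cell held 101 of the 105 Col1a2 UMIs, 89 of the 99 Col3a1 UMIs and 83 of the 100 Sparc UMIs. With the highest cell of each library left out the ratios were 0.85, 0.36 and 0.55. Xist, the RNA of the inactive X chromosome, was at -3.10 (-3.77 to -2.49).

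Some genes of lipid handling were lower in KO members, while the median over 17 measured genes of that list was -0.22. Lpl, which releases fatty acids from lipoproteins, had 293 UMIs in WT members and 87 in KO members, or 1007 and 240 CPM, a log2 ratio of -2.07 (-2.43 to -1.72). Fabp4, a fatty acid carrier, was at 540 and 201 CPM (-1.42, -1.84 to -1.01), and Lipa, the lysosomal lipase, at -1.10. These were the 3 of 10 lipid genes with enough UMIs that were at least 2-fold lower, and none was 2-fold higher. Anxa1, an annexin that dampens inflammation, was at 612 and 235 CPM (-1.38, -1.77 to -1.0). In Arg1-negative cells the ratios were -1.69 for Lpl, -1.0 for Fabp4 and -0.65 for Anxa1.

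**Figure D4:**
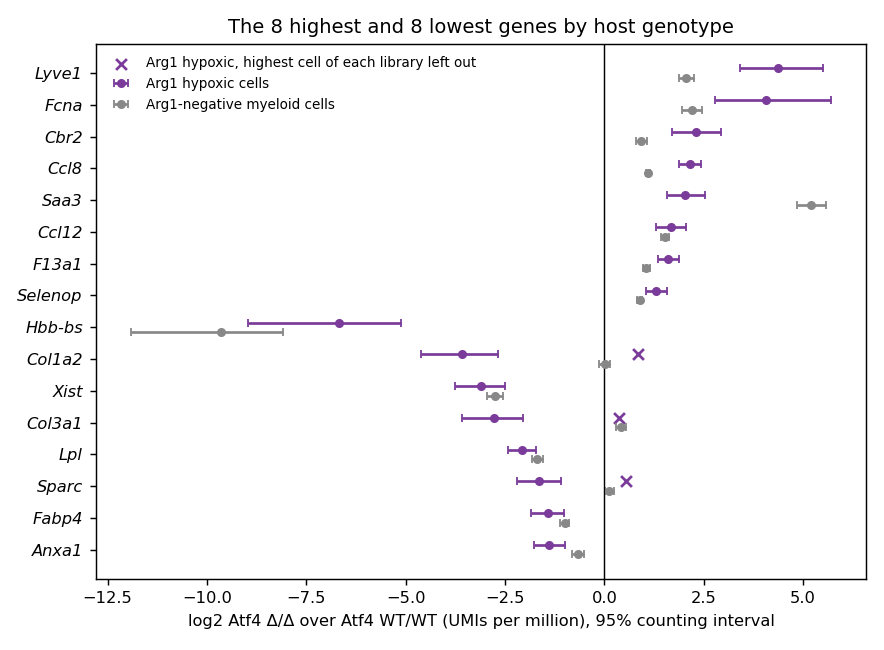
Log2 ratio of Atf4 Δ/Δ over Atf4 WT/WT (x axis) for the 8 highest and 8 lowest genes in Arg1 hypoxic cells, beside the same ratio in Arg1-negative myeloid cells, with 95% counting intervals as bars. Crosses give Col1a2, Col3a1 and Sparc with the highest cell of each library left out, which puts them at 0.85, 0.36 and 0.55.

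Because the libraries differed in sex, the same genes were read in the members that had Xist but lacked Y-linked UMIs, 83 cells in WT and 11 in KO. Lyve1 was at 40.5 CPM (17.5 to 79.7) in WT and 343 CPM (177 to 599) in KO, and Ccl8 at 374 and 3859 CPM. F13a1 was at 556 and 1858 CPM, Ccl12 at 126 and 1315 CPM, and Selenop at 587 and 1229 CPM. Fcna was at 20.2 CPM (5.51 to 51.8) and 171 CPM (62.9 to 373), and Cbr2 at 126 CPM (81.8 to 187) and 429 CPM (240.0 to 707). The intervals of these genes did not overlap, with KO higher in these cells too. They cover counting error only, and the KO side rests on 11 cells, with 12 Lyve1 and 6 Fcna UMIs. Deeper cells show Xist more often, so the split stands for sex only in part. The part of depth in these differences was not tested. Those of Saa3 overlapped, at 238 CPM (175 to 316) in WT and 343 CPM (177 to 599) in KO. Lpl was at 976 CPM (843 to 1124) in WT and 1000 CPM (697 to 1391) in KO, so its difference was not seen there, while in members with neither kind of UMI it was at 1073 and 146 CPM. Fabp4 was at 627 CPM (522 to 748) in WT and 429 CPM (240 to 707) in KO Xist cells. Anxa1 was at 582 CPM (480 to 698) and 314 CPM (157 to 563) there. The intervals of both genes overlapped.

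The KO members were not of 1 kind, and Lyve1, chosen after its values were seen, divided them. The 31 KO members with a Lyve1 UMI summed to 13453 CPM over the perivascular resident list, which contains Lyve1, against 3165 CPM in the 148 without. Complement and tissue macrophage genes were at 27162 and 17594 CPM and interferon genes at 7610 and 2968 CPM. MHC class II genes, which present antigen, were at 422 CPM (311 to 559, 48 UMIs) in the Lyve1 members and 7235 CPM in the others, and monocyte genes at 1301 and 4806 CPM. The hypoxia list was at 7004 and 8003 CPM and the glycolysis list at 15316 and 17574 CPM. The 2 kinds of member thus differed widely in macrophage identity genes and little in the genes of low oxygen, for which both had passed the same gate. The Lyve1 members were deeper, with a median of 3591 UMIs against 1407, and the part of depth in the split was not tested. The 4 WT members with Lyve1 were too few to describe in the same way.

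**Figure D5:**
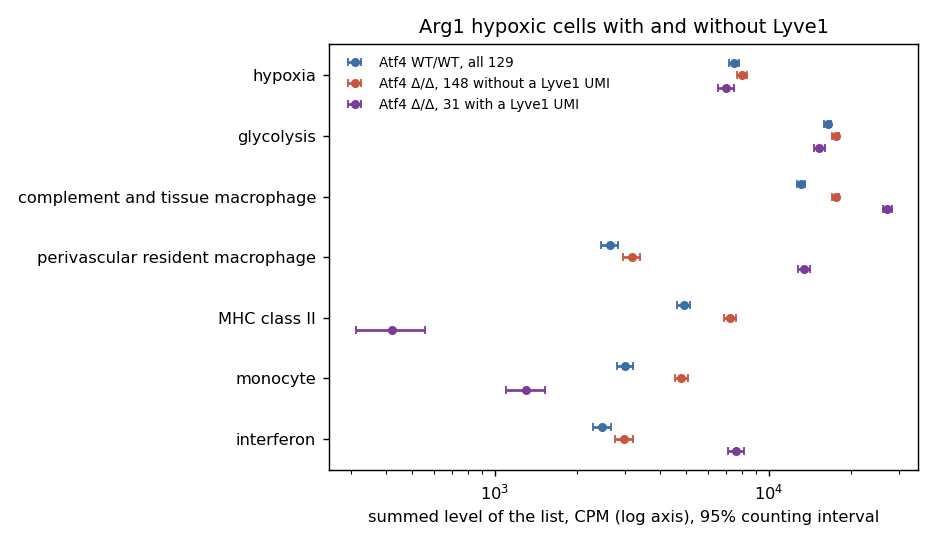
Summed level of 7 gene lists (CPM, log x axis, 95% counting intervals as bars) in all 129 Atf4 WT/WT members and in Atf4 Δ/Δ members with and without a Lyve1 UMI. The cells with Lyve1 lie at 422 CPM for MHC class II and 13453 CPM for the perivascular list, and close to the others for hypoxia.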

How the data were processed

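The values are raw UMI counts for each gene in each barcode, as deposited, made by the authors with Cell Ranger 3.1.0 against GRCm38. The labels and the methods name different versions of the 10x 3′ kit. The processing notes also list Seurat 3.2.1, and the deposited counts are not normalised. They cover 31053 genes, with 38417113 UMIs in WT and 38290024 UMIs in KO. Cells were taken with the study's limits on genes and mitochondrial UMIs. Clustering was not used, and members were chosen by the rule given in the report.

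UMIs of a class were summed per library and converted to CPM. Sums have exact Poisson, shares Clopper-Pearson and ratios conditional binomial 95% intervals, for counting error only. Counts under 3 were set to 3 for ratios, which makes a ratio against 0 depend on that floor. List genes needed 20 UMIs. No comparison was tested, because each genotype had 1 library and the gate made the Arg1 contrast. Named genes were the 12 highest and 12 lowest by the smaller of both libraries' ratios, the 8 highest and 8 lowest KO/WT ratios, and abundant or defining list genes. Other genes past 2-fold are named as examples chosen after their values were seen. Members and lists were chosen with earlier results of these data known. Scrublet in scanpy 1.11.5 marked doublets, which were kept. The ratios and their intervals were tried on simulated counts, drawn independently for each gene. That simulation did not cover the gate or the gene lists. It also held no uneven spread of UMIs over cells, which the data do show. Settings were changed 1 at a time in 14 ways, and in 3 more chosen after seeing the data.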

Additional observations from a re-analysis of the deposited data

Results flagged for a closer look

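Some barcodes met the gene conditions of the gate but were left out by the cell filter. There were 4 in WT, of 150 left-out myeloid barcodes (2.67%, 0.731 to 6.69), and 7 in KO, of 133 (5.26%, 2.14 to 10.5). They enter no comparison, and are listed because each library had more than the 3 barcodes that a count of 0 allows, which would be 2% and 2.26%. The interval of each share includes that value. All of them were over the mitochondrial limit, with median mitochondrial shares of 8.52% and 9.25%. Their hypoxia genes summed to 4874 CPM in WT and 4681 CPM in KO, below the 7463 and 7689 CPM of the members.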

How the results depend on the processing

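No paired analysis was possible because there was a single library per host genotype. For the 9 results that answer a comparison, 92 of 108 values under the alternatives stayed within the spread of the value or within 1.5 times the count, and 16 moved. For the gene lists that spread was wide, such as -0.91 to 0.81 for the ATF4 targets, so few settings could move them. The ATF4 target median went from -0.19 to 0.12 and 0.17 and still counts as having stayed. Lifting the upper limit on genes kept the same 129 and 179 members, so its values could not move. The 0.97 share ratio became 1.33 with at least 2 companion genes, 0.24 with cells thinned to 2000 UMIs and 0.27 in cells that had Xist but no Y-linked UMI. The 29 of 3431 genes higher in the members became 18 of 2190 at 2000 UMIs and 48 of 5533 with a minimum of 50 UMIs. The 50 of 3431 lower genes became 28 of 2665 with at least 5 UMIs of Tyrobp and Fcer1g. They were 27 of 2373 with melanoma genes under 0.1% and 96 of 3265 with 2 companion genes. With Inhba, Slpi and Thbs1 as the only companions they were 86 of 3283, and with a minimum of 50 they were 116 of 5533. Atf4 moved to -2.84 at 2000 UMIs. The 14 of 916 genes higher in KO became 8 of 344 in Xist cells and 45 of 1829 with a minimum of 50. The 15 of 916 lower became 8 of 525 with 2 companion genes and 27 of 1829 with a minimum of 50. They were 8 of 718 without members holding Hbb-bs or collagen UMIs, an alternative chosen after seeing the data. The number of genes tested changed with these settings, so a changed count need not be a changed share. The cause of the moves was not tested.

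Of 1059 values for single genes, 983 stayed, 68 moved and 8 reversed. Only the reversed values are named here. At 2000 UMIs the reversed ones were Ly6c2 (1.26), Ctla2a (0.19), Col1a2 (0.16), Col3a1 (0.42) and Sparc (1.16). Ly6c2 had 7 WT and 4 KO UMIs in all members and Ctla2a had 4 and 8. The ratios of these 2 genes thus lie near the floor of 3 and are not read as changes in level. Ctla2a also reversed with the stricter myeloid limit (0.076), Lpl in Xist cells (0.035) and Sparc without the globin and collagen cells (0.95). Depth limits the rarer genes, with 290895 WT and 362464 KO UMIs in the members.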

Other observations

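Further gene groups of the members were read as values only. Iron storage genes were among their most abundant RNAs. Fth1, the ferritin heavy chain, was at 21252 CPM in the WT members and 25340 CPM in those of KO, with log2 ratios over Arg1-negative cells of 0.61 and 0.70, and Hmox1, which degrades haem, at 1870 and 1876 CPM (1.16 and 0.86). Mt1, a metallothionein, was at 1.27 and 0.46. Of the antioxidant and iron list, 12 of 18 measured genes were above 0 in both libraries. Cd274, which encodes the checkpoint ligand PD-L1, was at 92.8 CPM in WT members on 27 UMIs and 88.3 CPM in KO members on 32 UMIs, with ratios of 2.13 and 1.77, while the other abundant genes of that list, such as Sirpa (-0.28 and -0.07) and Lgals9 (-0.08 and -0.01), were near 0. Genes of oxidative phosphorylation had medians of -0.15 and -0.29, with 59 of 74 below 0 in both libraries. Ribosomal protein genes had medians of -0.15 and -0.23, with 75 of 81 below 0, and over all 8154 measured genes the medians were -0.07 and -0.14, with 3103 below 0 in both.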
